A study of Homo sapiens with 8 samples.

Results

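The 6 genes described here, CEACAM1, CEACAM5, CEACAM6, CEACAM7, CEACAM19 and PSG9, belong to the carcinoembryonic antigen (CEA) family on the long arm of chromosome 19. They are 6 of the 38637 genes in the deposited table and were selected by their symbols, with results of these libraries already known. The rule does not say which measured values decided the choice, so the values of all 8 libraries were taken as used for it, and every value of the 6 genes below is a description rather than a test of them. The libraries come from SW1990, an established human line of pancreatic ductal adenocarcinoma, in 4 groups of 2 libraries. Vector cells carried the empty vector and EBF2-OE cells overexpressed EBF2, a transcription factor of the early B-cell factor family. Vehicle cells received the solvent and GSK-LSD1 cells a small-molecule inhibitor of the histone demethylase KDM1A (LSD1), at 2000 µM by the labels. All 4 groups share the SW1990 background. Neither the labels nor the methods say whether the 2 libraries of a group came from separate cultures. The p-values therefore set a group difference against the spread between these libraries, estimated with help from all genes. That spread may be technical. Library numbers are those of the labels, 2 and 3 in the EBF2 experiment and 1 and 2 in the inhibitor experiment.

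CEA family proteins are surface or secreted glycoproteins built from immunoglobulin-like domains. The CEACAM branch mediates adhesion between cells, and its members reach the membrane either through a transmembrane segment, as CEACAM1 does, or through a glycosylphosphatidylinositol (GPI) anchor, as CEACAM5, CEACAM6 and CEACAM7 do. CEACAM5 is the CEA measured in blood as a tumour marker of colorectal and pancreatic cancer, and CEACAM6 is commonly raised in pancreatic adenocarcinoma. The PSG branch holds the pregnancy-specific glycoproteins, which are secreted in large amounts by the placental syncytiotrophoblast.

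The total count per library lay between 20453362 and 27054876, and the 2 libraries of each group differed by more than counting error (chi-square per degree of freedom over genes 5.70 to 36.1). EBF2 stood at 146 TPM in EBF2-OE 2 and 2040 TPM in EBF2-OE 3 (a level per transcript length, scaled to the library), against 0.447 to 0.849 TPM in the other 6 libraries. The overexpression was therefore unequal, 14.1 times higher in EBF2-OE 3 in CPM (counts scaled by library size and TMM factors). Of the 7 epithelial markers, KRT7, KRT8, KRT18 and MUC1 were high in every library, whereas EPCAM (0.249 to 1.42 TPM), CDH1 (0.186 to 1.12 TPM) and KRT19 (0 to 1.57 TPM) were near 0. Markers of acinar and islet cells were at 0 to 0.0844 TPM when summed. The 3 fibroblast markers, COL1A1, COL1A2 and PDGFRB, summed to 48.3 to 63.3 TPM, above EPCAM, CDH1 and KRT19. The 3 endothelial markers summed to 0.503 to 5.02 TPM and the 3 leukocyte markers to 1.88 to 4.74 TPM.

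To show the sequence upstream of the genes, the 250 bases before the RefSeq start are printed for those of them that have a RefSeq promoter entry. Each stretch runs 5′ to 3′ on the strand of the gene (RefSeq, GRCh38.p14). CEACAM7 lies at chr19:41688271-41688520 (minus strand), CEACAM5 at chr19:41708376-41708625 (plus), CEACAM6 at chr19:41755280-41755529 (plus) and CEACAM1 at chr19:42528482-42528731 (minus). Capitals mark matches to the palindrome bound by early B-cell factors (TCCC and GGGA with any 2 bases between them) and to the E-box CACGTG, which is bound by factors such as USF1 and USF2.
CEACAM7: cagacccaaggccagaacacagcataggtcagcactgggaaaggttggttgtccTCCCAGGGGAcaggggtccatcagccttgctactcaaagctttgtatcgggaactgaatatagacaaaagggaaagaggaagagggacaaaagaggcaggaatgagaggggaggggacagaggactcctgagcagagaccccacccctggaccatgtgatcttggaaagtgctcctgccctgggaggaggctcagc
CEACAM5: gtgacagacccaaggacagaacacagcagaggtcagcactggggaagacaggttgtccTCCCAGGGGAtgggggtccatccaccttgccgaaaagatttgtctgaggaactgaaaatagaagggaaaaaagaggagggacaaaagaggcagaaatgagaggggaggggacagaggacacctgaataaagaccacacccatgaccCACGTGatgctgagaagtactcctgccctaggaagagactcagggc
CEACAM6: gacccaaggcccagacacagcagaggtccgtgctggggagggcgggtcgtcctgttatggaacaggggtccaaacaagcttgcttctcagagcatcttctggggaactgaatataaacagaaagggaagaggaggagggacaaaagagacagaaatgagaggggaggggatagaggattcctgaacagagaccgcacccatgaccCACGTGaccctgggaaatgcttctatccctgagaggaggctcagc
CEACAM1: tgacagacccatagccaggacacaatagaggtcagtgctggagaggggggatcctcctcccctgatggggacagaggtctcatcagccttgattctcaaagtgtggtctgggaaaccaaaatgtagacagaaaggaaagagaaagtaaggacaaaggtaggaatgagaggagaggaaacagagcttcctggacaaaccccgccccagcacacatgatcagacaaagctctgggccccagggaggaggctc

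The 4 stretches resemble each other, with 80.5% identity between CEACAM5 and CEACAM7, 79.9% between CEACAM6 and CEACAM7, and 66.2% between CEACAM1 and CEACAM5, the lowest of the 6 pairs. Both strands were searched. The palindrome matched 196 bases before the start of CEACAM7 and 192 bases before that of CEACAM5, and 1.06% of the 35116 RefSeq promoters of the same length hold it. CEACAM6, CEACAM1 and the promoters of other CEA family genes with an entry held no match to it. The E-box matched 46 bases before the start of CEACAM5 and 45 bases before that of CEACAM6, against 6.34% of all promoters. The GC box GGGCGG of SP1-like factors matched CEACAM6 and CEACAM1 and 42.6% of all promoters, and it is left in lower case. A match of letters is a description and not a site of binding.

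By the file's hg38 coordinates CEACAM7 spans chr19:41673303-41688270, CEACAM5 chr19:41708626-41730433 and CEACAM6 chr19:41755529-41772211, which places these 3 genes side by side. CEACAM1 spans chr19:42507306-42528482, PSG9 chr19:43253282-43269530 in the PSG cluster, and CEACAM19 chr19:44665860-44684355. Per length, CEACAM19 had the highest level of the 6 genes in Vector, EBF2-OE and Vehicle cells, and PSG9 the highest in GSK-LSD1 cells. CEACAM5 and CEACAM6 were at or near 0 throughout.

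**Figure D1:**
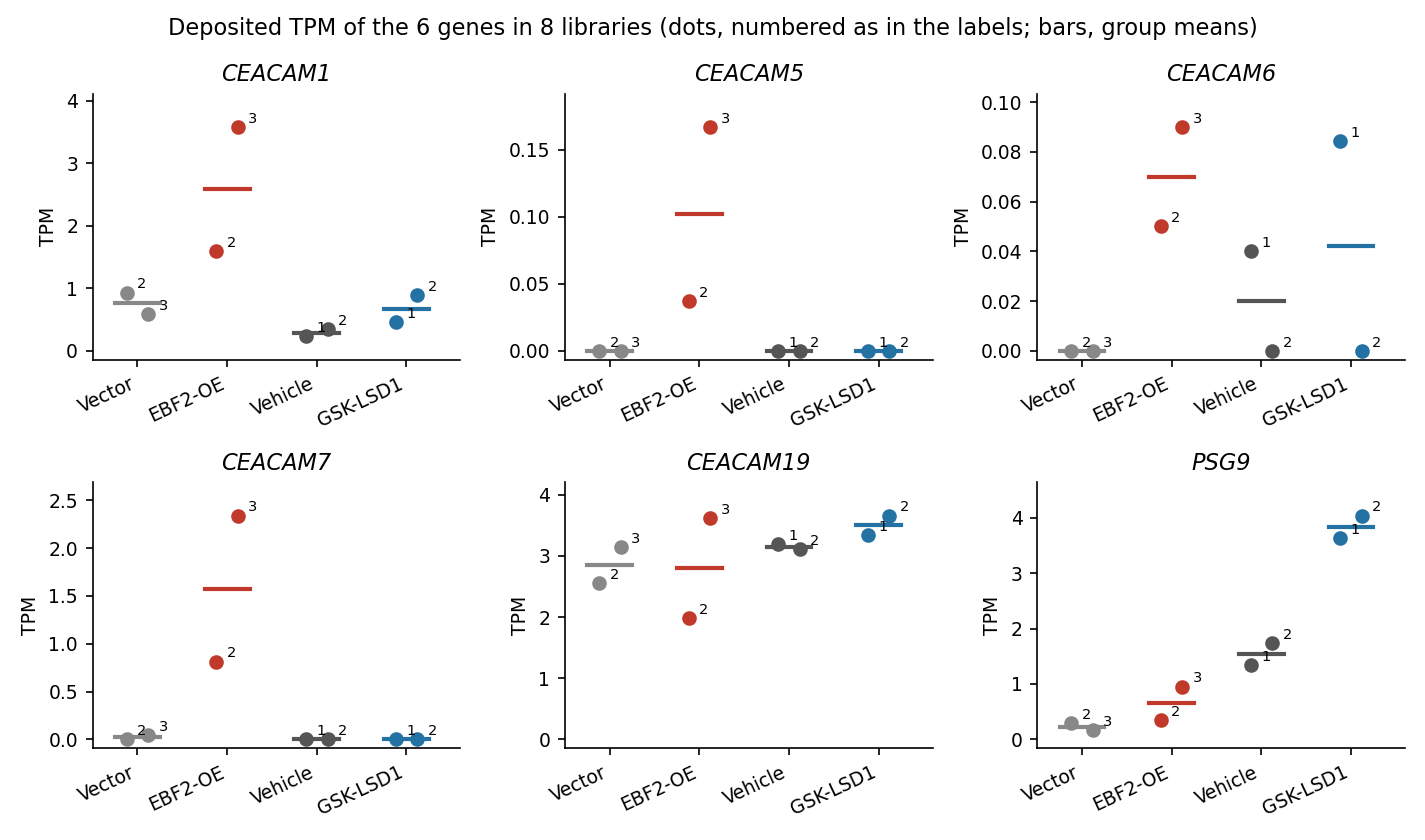
Level of each of the 6 genes in TPM on the vertical axis, 1 dot per library with its number from the labels, and a bar at the mean of the 2 libraries of each group. CEACAM7 is seen almost only in the 2 EBF2-OE libraries (0.813 and 2.34 TPM), PSG9 is highest in the 2 GSK-LSD1 libraries (3.64 and 4.04 TPM), and CEACAM19 lies between 1.98 and 3.66 TPM everywhere.

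In Vector cells the order was CEACAM19 at 2.84 ± 0.412 TPM (SD, n = 2), CEACAM1 at 0.761 ± 0.244, PSG9 at 0.226 ± 0.0863 and CEACAM7 at 0.0232 ± 0.0327, and no neighbours with counts in this order overlapped between their libraries. In EBF2-OE cells CEACAM19 (2.80 ± 1.16 TPM), CEACAM1 (2.59 ± 1.41) and CEACAM7 (1.58 ± 1.08) lay within each other's spread, and PSG9 followed at 0.654 ± 0.424, overlapping only CEACAM7. In Vehicle cells CEACAM19 (3.15 ± 0.0606 TPM) was followed by PSG9 (1.54 ± 0.282) and CEACAM1 (0.290 ± 0.0824), without overlap. In GSK-LSD1 cells PSG9 (3.84 ± 0.283 TPM) and CEACAM19 (3.50 ± 0.226) overlapped, and CEACAM1 stood at 0.675 ± 0.305.

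EBF2-OE was compared with Vector to ask which genes change when EBF2 is raised. CEACAM7 and CEACAM1 had more counts in both EBF2-OE libraries than in either Vector library, CEACAM5 appeared with a few counts, and CEACAM19 did not separate the groups. Over all genes, edgeR's quasi-likelihood test called none of 15560 genes at an adjusted p under 0.05 and a fold above 1.5 (0%), whereas 148 genes passed with the unadjusted p and DESeq2 called 7. Of the 6 genes, 4 passed the filter on low counts and 0 were called, and EBF2 itself was not called either.

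CEACAM7, a GPI-anchored adhesion protein known from the colon epithelium, had 0 and 1 counts in Vector 2 and 3 and 15 and 48 counts in EBF2-OE 2 and 3. The groups did not overlap, and all 4 Vehicle and GSK-LSD1 libraries had 0 counts. The summed counts of 63 against 1, scaled by library size, gave a ratio of 66.3, with a counting interval of 11.5 to 2660 (95%, exact, counting error only). The interval pools 2 unequal EBF2-OE libraries and, the gene having been chosen with these values known, is a description of them. The ratio rests on 1 Vector count. The fitted log2 fold change, which depends on the prior count and is no bound, was 5.71 (SE 1.09), with 4.74 without EBF2-OE 3 and 7.95 without Vector 3. CEACAM7 passed the filter only through the EBF2-OE libraries.

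CEACAM5, the tumour marker CEA, had 1 and 5 counts in the EBF2-OE libraries and 0 in the other 6. Against the 3 counts that a total of 0 in the Vector group allows, the summed 6 counts were at least 2.11-fold higher, a bound that takes the 6 counts as exact and leaves out their own counting error. CEACAM6, a GPI-anchored protein of granulocytes and epithelia, had 1 and 2 counts in EBF2-OE cells and 0 in both Vector libraries. With both groups at or under 3 counts, no fold is given for CEACAM6, and a difference was not detectable at this depth. These low levels leave the RNA of CEACAM5 and CEACAM6 at under 0.2 TPM in all libraries, and their proteins were not measured in these data.

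CEACAM1, a transmembrane adhesion receptor that signals through phosphatases such as PTPN6 and PTPN11, went from 26 and 19 counts in Vector 2 and 3 to 44 and 110 counts in EBF2-OE 2 and 3. Both EBF2-OE libraries lay above both Vector libraries. The log2 fold change was 1.81 (SE 0.52), from 1.01 ± 0.301 CPM in Vector to 3.53 ± 1.94 CPM in EBF2-OE (SD, n = 2). It was 1.10 without EBF2-OE 3 and 2.27 without EBF2-OE 2.

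PSG9, a placental glycoprotein able to activate TGF-beta, stood at 9 and 6 counts in Vector 2 and 3, and at 11 and 33 in EBF2-OE 2 and 3. The groups did not overlap, but EBF2-OE 2 stood close to Vector. The log2 fold change of 1.58 (SE 0.68) fell to 0.68 when EBF2-OE 3 was left out. For CEACAM19, a less studied transmembrane member, the Vector libraries gave 73 and 104 counts and the EBF2-OE libraries 56 and 114. The EBF2-OE libraries enclosed both Vector libraries, and the log2 fold change was 0.01 (SE 0.38), with a sign that changed in 8 of 12 alternative settings.

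**Figure D2:**
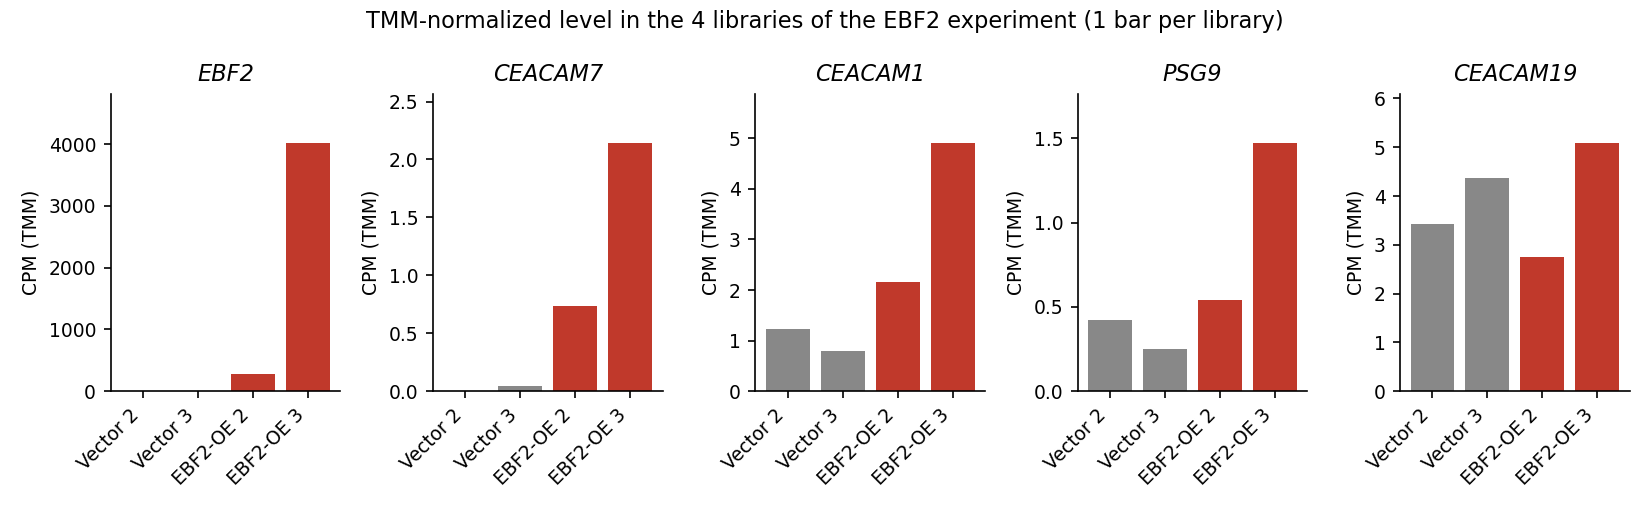
TMM-normalized CPM of EBF2 and of the 4 genes with enough counts, 1 bar per library of the EBF2 experiment (grey, Vector; red, EBF2-OE). EBF2-OE 3 is the highest library in all 5 panels, and in CEACAM19 EBF2-OE 2 is the lowest.

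The ratio of EBF2-OE 3 to EBF2-OE 2 in CPM was 2.91 for CEACAM7, 2.27 for CEACAM1, 2.73 for PSG9 and 1.85 for CEACAM19. CEACAM5 and CEACAM6 had too few counts for a ratio. Among the other family genes with enough counts it was 1.02 for PSG4, 1.16 for PSG5, 0.989 for PSG1, 0.796 for PSG2 and 0.237 for PSG10P. The share of all genes higher in EBF2-OE 3 was not computed, and nothing is read from these ratios. With 2 libraries, the level of EBF2 and any other difference between them cannot be told apart. Of the 4 tested genes, 3 had both EBF2-OE libraries above both Vector libraries, which 12.1% of all tested genes did. At the unadjusted p and a fold above 1.5, 2 of the 4 (CEACAM1 and CEACAM7) were higher, against 0.733% of all tested genes, and since the choice of the genes used these libraries nothing is read from either count. Without the filter on low counts, edgeR called 74 genes, CEACAM1 and CEACAM7 among them.

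Of 29 other CEA family genes sought, 18 were in the table, and 5 of these had enough counts in the EBF2 experiment. None of the 5 was called. PSG1, PSG2, PSG4 and PSG5 also had both EBF2-OE libraries above both Vector libraries in CPM, beside 12.1% of all tested genes, and PSG10P overlapped. Nothing is read from this either. PSG4 and PSG5, the PSG genes with the most counts, had log2 fold changes of 0.09 (SE 0.19) and 0.34 (SE 0.21). PSG1 stood at 0.85 (SE 0.44), PSG2 at 1.01 (SE 0.63) and PSG10P at -0.12 (SE 0.72). CEACAM8, a granulocyte surface protein, had 10 counts in EBF2-OE 3 and CEACAM4 5 counts, and both had 0 in the other 7 libraries. The family genes with any count numbered 21 in EBF2-OE 3 against 13 to 16 in the others, and nothing is read from this count. Over the whole table, genes with any count numbered 21319 to 22330 in the other libraries and were also most numerous, 22695, in EBF2-OE 3.

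That library also held more genes seen nowhere else. Genes with at least 5 counts in EBF2-OE 3 and 0 in the other 7 libraries numbered 7, against 0 to 4 in each other library. CEACAM8, CEACAM4, CYP2A7 and LILRA4, 4 of these 7, lie on chromosome 19, which holds 5.23% of the listed genes. CEACAM8 and CEACAM4 belong to the family described here, which lies on that chromosome. The 7 genes were named after their counts were seen, so nothing is read from the share. Of the 3 granulocyte markers, FCGR3B had 0 counts in all libraries and MPO at most 1 count, which leaves ELANE alone. ELANE stood at 1.32 TPM in EBF2-OE 3 and at 1.32 to 3.28 TPM over the 8 libraries, and nothing is read from it. The part of any other difference of this library in the CEACAM counts was not tested.

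**Figure D3:**
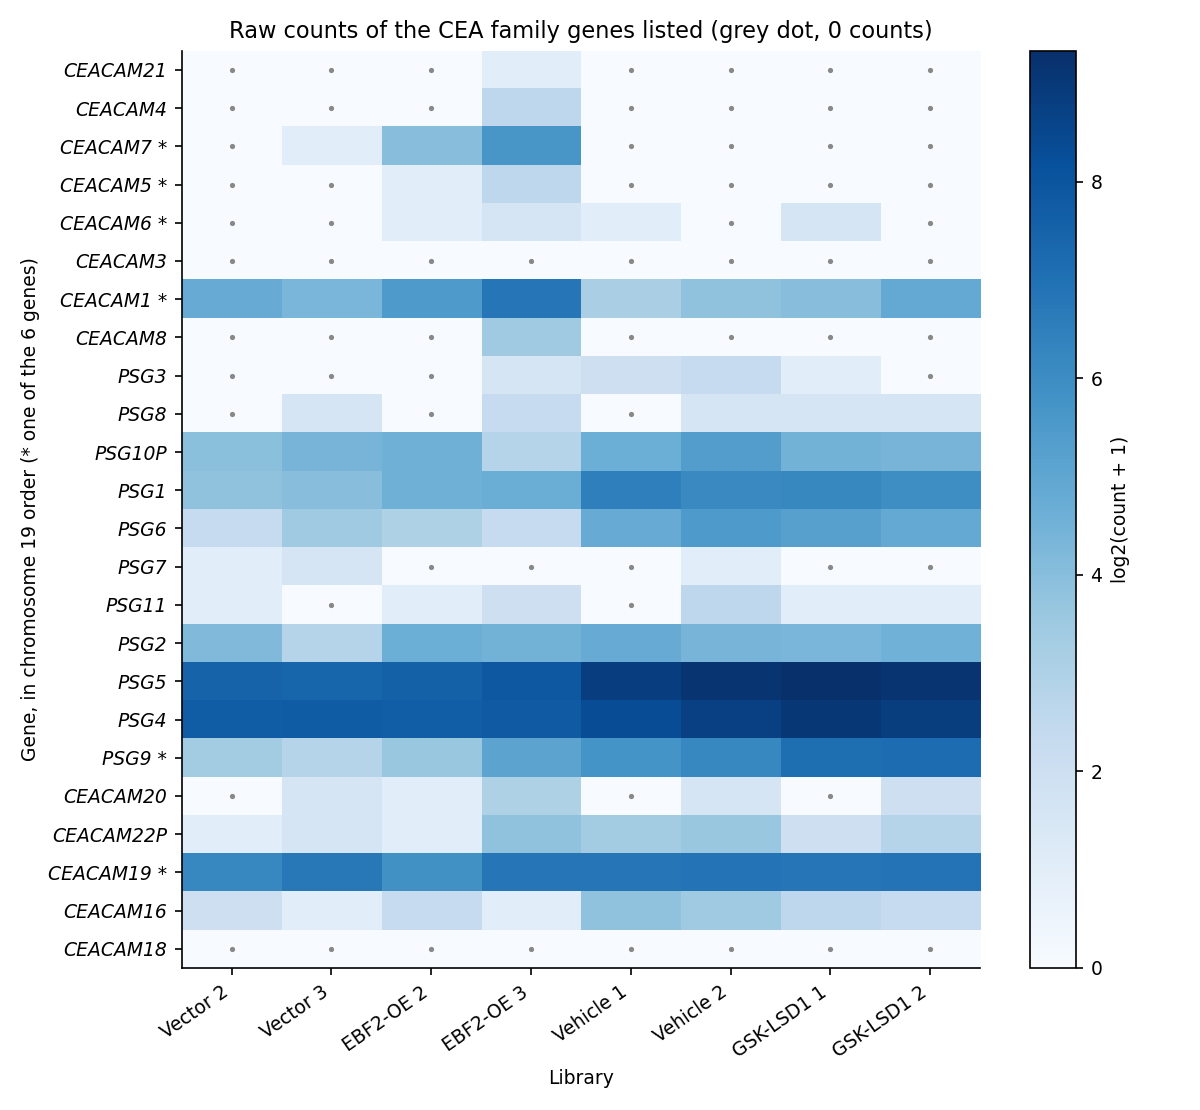
Raw counts of the 24 CEA family genes in the table, shaded by log2(count + 1), with genes in chromosome 19 order from top to bottom and libraries from left to right. CEACAM7 darkens in the 2 EBF2-OE libraries (15 and 48 counts), EBF2-OE 3 has the fewest empty cells (21 genes with counts), and PSG9 darkens toward the 2 GSK-LSD1 libraries (134 and 143 counts).

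GSK-LSD1 was compared with Vehicle to ask which genes change when KDM1A is inhibited. PSG9 was higher in both GSK-LSD1 libraries and was among the genes called, CEACAM1 was higher from a low level without being called, and CEACAM5, CEACAM6 and CEACAM7 were at or near 0. Here edgeR called 734 of 16059 genes (4.57%), 406 higher and 328 lower. Of the 6 genes 3 passed the low-count filter and 1 was called.

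PSG9 had 52 and 73 counts in Vehicle 1 and 2 and 134 and 143 counts in GSK-LSD1 1 and 2. Both GSK-LSD1 libraries lay well above both Vehicle libraries, and each group was even. The level went from 2.39 ± 0.402 to 6.11 ± 0.338 CPM (SD, n = 2), a 2.54-fold difference with a log2 fold change of 1.35 (SE 0.18). It lay between 1.19 and 1.53 with any 1 of the 4 libraries left out. In 1 fit over all 8 libraries, which shares the wider spread of the EBF2 experiment, the log2 fold change was 1.35 and PSG9 was not called.

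CEACAM1 had 8 and 13 counts in Vehicle 1 and 2 and 15 and 28 in GSK-LSD1 1 and 2. The groups did not overlap, although Vehicle 2 and GSK-LSD1 1 were close. The log2 fold change was 1.22 (SE 0.46), between 0.70 without GSK-LSD1 2 and 1.62 without GSK-LSD1 1.

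CEACAM19 gave 113 and 119 counts in Vehicle cells, nearly the same as the 112 and 118 counts after GSK-LSD1, and a log2 fold change of 0.18 (SE 0.15) after scaling. CEACAM5 and CEACAM7 had 0 counts in all 4 libraries. For CEACAM6 the Vehicle libraries gave 1 and 0 counts and the GSK-LSD1 libraries 2 and 0, which gives no fold. Each of the 3 tested genes had both GSK-LSD1 libraries above both Vehicle libraries in CPM, as did 30.0% of all tested genes, and nothing is read from this count.

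The other PSG genes, a list also drawn up with results of these libraries known, gave mixed values. PSG4, the nearest neighbour of PSG9 with counts, went from 309 and 419 counts with vehicle to 530 and 460 with GSK-LSD1. Its GSK-LSD1 libraries were both higher, and it was called with a log2 fold change of 0.64 (SE 0.12, adjusted p = 0.00417, edgeR). The counts of PSG5 were 451 and 557 with vehicle, and 643 and 555 with GSK-LSD1. In CPM its groups did not overlap, and its log2 fold change of 0.45 (SE 0.10, adjusted p = 0.0110, edgeR) lay under the fold limit. PSG1 (-0.02, SE 0.22), PSG2 (0.03, SE 0.35), PSG6 (0.09, SE 0.31) and the pseudogene PSG10P (-0.42, SE 0.33) were not called. With PSG4, 1 of the 6 tested other family genes was called, beside 4.57% of all tested genes, and nothing is read from so small a count.

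CGA, which encodes the alpha chain shared by the glycoprotein hormones and is abundant in placenta, was also higher in GSK-LSD1 cells than in Vehicle cells. It stood at 54.3 and 64.4 TPM in Vehicle and 158 and 189 TPM in GSK-LSD1 cells. In the EBF2 experiment it was at 147 to 183 TPM in all 4 libraries, where PSG9 was lowest. The 3 placental markers, CGA, CSH1 and KISS1, summed to 54.6 to 189 TPM, with CSH1 at 0 in all libraries and KISS1 at no more than 2 counts. The relation of these markers to PSG9 was not tested.

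**Figure D4:**
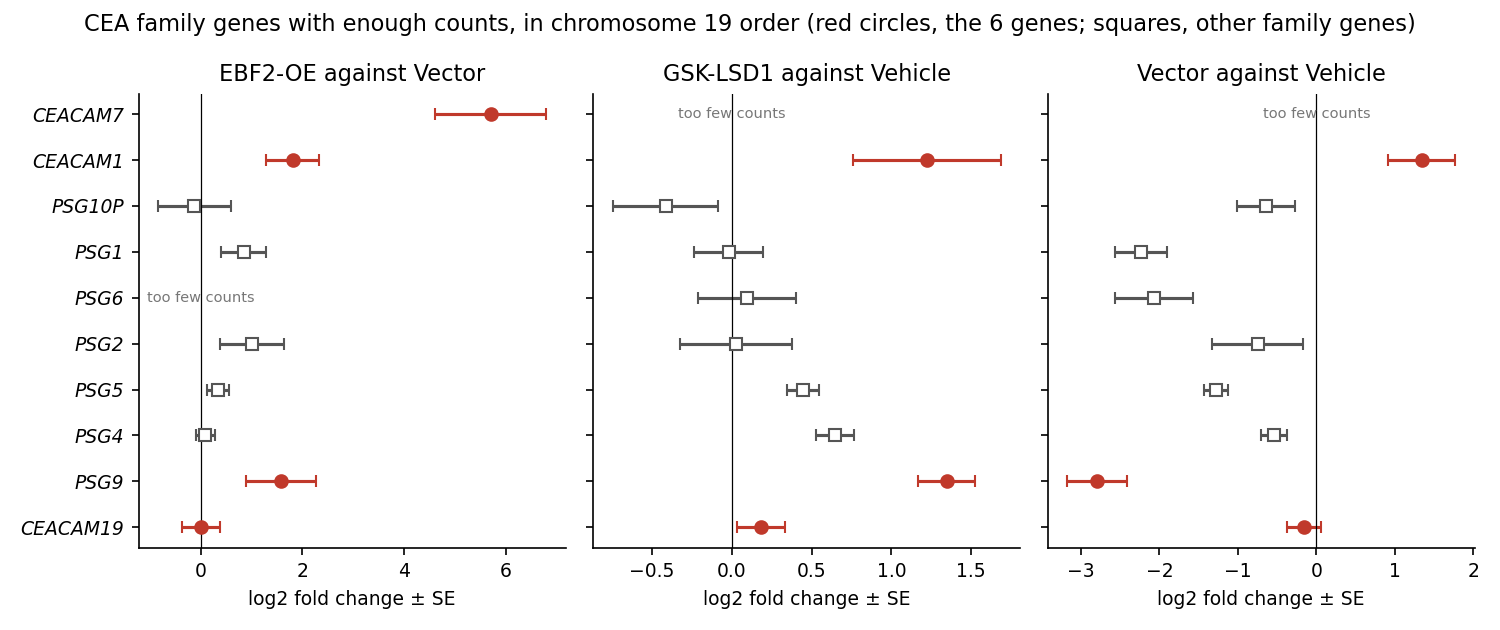
The log2 fold change with its SE on the horizontal axis for each CEA family gene with enough counts, in chromosome 19 order, in 3 comparisons (red circles, genes among the 6; squares, other family genes). CEACAM1 lies right of 0 in all 3 panels, PSG9 right of 0 in the first 2 and at -2.79 in the third, and the fitted value of CEACAM7 depends on the prior count.

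The 2 kinds of control cells were compared to see how far the starting levels of the genes differed. PSG9 was lower in Vector than in Vehicle, and other PSG genes were lower with it, whereas CEACAM1 was higher. Vector differed from Vehicle in vector, solvent and experiment, which cannot be told apart. In this comparison edgeR called 2558 of 16019 genes (16.0%), 927 higher and 1631 lower in Vector.

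PSG9 had 9 and 6 counts in Vector against 52 and 73 in Vehicle. The groups were far apart, with a log2 fold change of -2.79 (SE 0.38), a level 6.92-fold lower in Vector, and PSG9 was among the genes called. The call was lost without Vehicle 1, where the value was -2.95, and without Vehicle 2, where it was -2.60. Of the other PSG genes PSG1 (-2.23, SE 0.33, adjusted p = 0.0119), PSG6 (-2.07, SE 0.49, adjusted p = 0.0339) and PSG5 (-1.28, SE 0.15, adjusted p = 0.00923) were called lower by edgeR, 3 of the 6 tested, beside 16.0% of all genes called in either direction. PSG4 (-0.54, SE 0.16), PSG2 (-0.75, SE 0.58) and PSG10P (-0.64, SE 0.37) were not called.

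CEACAM1 had 26 and 19 counts in Vector against 8 and 13 in Vehicle, without overlap, and a log2 fold change of 1.34 (SE 0.43) that was not called. It lay between 1.01 and 1.65 with any 1 library left out, and CEACAM1 was called without Vector 3. CEACAM19 overlapped between the groups and had a log2 fold change of -0.16 (SE 0.22). Of the 3 tested genes 1 had both Vector libraries above both Vehicle libraries, beside 35.6% of all genes. EBF2-OE cells lay below Vehicle cells in PSG9, with at most 0.954 TPM against at least 1.34 TPM.

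The effects of EBF2-OE and of GSK-LSD1 were compared directly in 1 edgeR model over the 8 libraries, as the difference of the 2 log2 fold changes. The difference (EBF2-OE effect minus GSK-LSD1 effect) was 0.57 (SE 0.77) for CEACAM1, 0.23 (SE 0.62) for PSG9 and -0.19 (SE 0.40) for CEACAM19. Each SE is of the size of the difference or larger, so differences of this size could not be resolved with 2 libraries a group. Over all 16558 genes edgeR found 0 past the adjusted threshold (0%) and DESeq2 found 94. For CEACAM7, with 0 counts in the 4 Vehicle and GSK-LSD1 libraries, a GSK-LSD1 effect could not be estimated, and so no difference is given.

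The genes whose TMM-normalized log2 CPM followed CEACAM1, CEACAM7, CEACAM19 and PSG9 most closely over the 8 libraries, among 16558 genes, were read as a description, since the libraries share 4 groups and 2 experiments. CEACAM7 was most like LOC105371042, a non-coding RNA gene (Pearson's r 0.999, Spearman's rho 1.00), which had 0, 1, 20 and 53 counts in Vector 2, Vector 3, EBF2-OE 2 and EBF2-OE 3 and 0 in the other 4. Next came EBF2 itself (r 0.986, rho 0.614). CEACAM1 was most like SDF2 (r 0.968) and EXOC7 (r 0.967), and its r with CEACAM7 was 0.856.

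CEACAM19 was most like TBC1D10C (r 0.987) and IL15 (r 0.980). IL15, a cytokine of lymphocyte growth, had 73, 105, 59 and 112 counts in Vector 2, Vector 3, EBF2-OE 2 and EBF2-OE 3, close to the 73, 104, 56 and 114 counts of CEACAM19. PSG9 was most like SFTPC (r 0.992), which had at most 20 counts, and RCN3 (r 0.989). No pair among CEACAM1, CEACAM7, CEACAM19 and PSG9 other than CEACAM1 with CEACAM7 and CEACAM19 with PSG9 (r 0.620) had a positive r.

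The nearest genes with a median of at least 10 counts around the CEACAM7, CEACAM5 and CEACAM6 group and before CEACAM1 were read in the EBF2 experiment. DMAC2, 225481 bases before CEACAM7, and RPS19, 88044 bases after CEACAM6, were well covered. Neither adjoins the group, since CEACAM21 and CEACAM4 lie between DMAC2 and CEACAM7, and CEACAM3 lies between CEACAM6 and RPS19. DMAC2 gave 809 and 1075 counts with the empty vector against 889 and 972 with EBF2, and RPS19 22804 and 25801 against 22837 and 24833. The counts of both genes overlapped between the groups, although after scaling both EBF2-OE libraries lay above both Vector libraries for RPS19. LIPE, the lipase gene 79885 bases before CEACAM1, gave 564 and 556 counts with the empty vector against 502 and 872 with EBF2, so that the groups overlapped.

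Reads may also be shared between genes, since the counting is not stated to use strand. LIPE-AS1, which overlaps CEACAM1 on the other strand, gave 22 and 15 counts with the empty vector and 28 and 25 with EBF2. CEACAM16-AS1 overlaps CEACAM19 on the other strand and had 31 to 114 counts, and PVR overlaps its start on the same strand with 1129 to 2509 counts. Counts of CEACAM1 and CEACAM19 cannot be told apart from those of these partners where they overlap. Stretches identical to another gene were most frequent for PSG9. Of its 100-base transcript windows, 15.3% occur in another gene in GENCODE v44, mostly in the pseudogene CEACAMP10, and the effect on its counts was not tested. The share was 0.301% for CEACAM1, 1.48% for CEACAM5, 1.79% for CEACAM6, 0% for CEACAM7 and 0.400% for CEACAM19. It takes in overlapping genes as well as copies, and for CEACAM19 the shared windows were those of PVR.

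Genes that act with these proteins were taken from 3 lists. For GPI anchor synthesis and attachment, on which CEACAM5, CEACAM6 and CEACAM7 depend, 32 of 34 listed genes were tested and 0 were called in either treatment, beside 0% of all genes for EBF2-OE and 4.57% for GSK-LSD1. Their median log2 fold change was 0.04 for EBF2-OE and 0.08 for GSK-LSD1, beside 0.00 and -0.01 over all genes. The extremes were PIGW (-0.26) and PGAP1 (0.28) for EBF2-OE, and PIGY (-0.36) and DPM3 (0.35) for GSK-LSD1.

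Of adhesion and signalling partners of the CEACAM proteins and PSG9, 17 of 19 were tested and 0 were called in either treatment, beside the same shares of all genes, with medians of 0.03 and -0.03. TGFBR2 (-0.24) and PTPN6 (0.25) were the extremes for EBF2-OE, and CAV1 (-0.47) and CTNNB1 (0.21) for GSK-LSD1. Of transcription factors described at CEA family promoters, 14 of 16 were tested. None was called for EBF2-OE (median 0.01, from IRF1 at -0.61 to SOX9 at 0.48). For GSK-LSD1 1 of the 14 fell, KLF4, a factor of epithelial differentiation, by 0.64 on the log2 scale (SE 0.05, adjusted p = 3.80e-05, edgeR), beside 4.57% of all genes called. HNF4A, a factor of endodermal epithelia, had the highest value (1.24, SE 0.53) and was not called, and the median was -0.16.

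Between the control cells, where 16.0% of all tested genes were called, the lists held calls at about that share. In Vector, 2 of the 32 GPI anchor genes were called higher and 3 lower, among them PIGA (0.73), the catalytic subunit of the first step of the pathway, and PIGZ (-1.23). Of the 17 partners, ITGA5 (0.81), TGFBR1 (0.68) and EGFR (0.62) were called higher. Of the 14 factors, SOX9 (1.76) was called higher and TFAP2A (-0.88) and USF2 (-0.59) lower.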

How the data were processed

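RNA-seq of 8 SW1990 libraries was analysed. Per the labels, poly(A) RNA was sequenced with paired ends, and the authors aligned reads to hg38 with HISAT2 and counted them per gene with HTSeq; versions, annotation and strand setting are not given in the sources used here. The authors deposited raw counts per gene and the TPM computed from them; the deposited TPM equals count over length rescaled per library, to within rounding. Counts served for all tests and TPM only to compare levels between genes.

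The 6 genes and all gene lists were chosen with earlier results of these data known. Each treatment was compared with its own control on 4 libraries, and the difference of the 2 effects was tested on 8. The test was edgeR 4.0.16's quasi-likelihood test in R 4.3.3 (two-sided), with TMM factors, genes kept by filterByExpr (minimum count 10) and Benjamini-Hochberg adjustment over the whole table. Called genes have an adjusted p under 0.05 and a fold above 1.5. The SE of an edgeR log2 fold change is approximate. It was taken as the absolute log2 fold change over the square root of the test's F statistic. Groups at 0 counts were bounded at 3 counts over the group. Intervals cover counting error only. The alternatives were DESeq2 1.42.0, its size factors in edgeR, other filters, 1 fit over 8 libraries, limma 3.58.1 on log2(CPM + 1) and log2(CPM + 0.1), the replicate number as a block and each library left out. The unadjusted p was added after seeing the data. Tests were tried on simulated data with 200 changed genes. Genes named are the 6 genes, family genes, EBF2, cell type markers, the nearest neighbours with a median of at least 10 counts, the 2 genes most alike in pattern over 8 libraries, and the called or extreme genes of each list. The genes seen in 1 library and overlapping genes were named after their values were seen. Promoters came from RefSeq, where 4 of the 6 genes matched an entry.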

Additional observations from a re-analysis of the deposited data

How the results depend on the processing

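Of 249 values under alternatives, 191 were rated the same, 15 reversed, 3 were weaker, 8 stronger and 32 moved. For a log2 fold change or a difference of effects, the same means that sign and side of the adjusted p threshold were kept. For a count of called genes it means a count within a set ratio of the main one. For GSK-LSD1 against Vehicle, 588 genes with limma on log2(CPM + 1) were rated the same as 734. For the order by level it means that no place changed, and for summed CEACAM counts a log2 ratio close to that of CEACAM1. The cause of the changes was not tested, beyond what each setting removes.

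For EBF2-OE against Vector, the count of genes called (0) became 7 with DESeq2, 74 without the low-count filter, 2 in 1 fit over 8 libraries, 5 with the replicate number as a block, 148 with the unadjusted p, and 1 to 3 with a library left out. Of the 6 genes, those called (0) became 2 without the filter and 2 with the unadjusted p. For GSK-LSD1 against Vehicle, the genes called (734) became 467 with DESeq2, 100 in 1 fit over 8 libraries and 439 to 1007 with a library left out. Of the 6 genes, those called (1) became 0 in the 8-library fit and 2 with the unadjusted p. For Vector against Vehicle, the genes called (2558) ranged from 12 without Vehicle 1 to 4259 without Vector 2, with 235 without Vehicle 2. Of the 6 genes, those called (1) became 2 without the filter, 0 with at least 10 counts in every library, which removes PSG9, 0 to 2 with a library left out, and 2 with the unadjusted p. Genes past the threshold for the difference of the effects (0) became 94 with DESeq2 and 0 to 71 with a library left out, the latter without EBF2-OE 2.

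The log2 fold change of CEACAM19 for EBF2-OE against Vector (0.01) reversed to -0.00411 with DESeq2, -0.00508 without the filter, -0.00148 in the 8-library fit, -0.0313 and -0.0490 with limma at pseudocounts of 1 and 0.1, -0.0354 with the replicate block, -0.15 without Vector 2 and -0.51 without EBF2-OE 3, which is one side of the range up to 0.37 without EBF2-OE 2. In Vector against Vehicle it turned from -0.16 to 0.00590 without Vector 2 and was lowest without Vector 3 (-0.35). The difference of the effects reversed for PSG9 with limma on log2(CPM + 1) (-0.53), without Vector 3 (-0.0955) and without EBF2-OE 3 (-0.66), for CEACAM1 without EBF2-OE 3 (-0.12), and for CEACAM19 without Vector 3 (0.00987) and without EBF2-OE 2 (0.18). With 1 library left out the difference ranged up to 0.76 for PSG9 and 1.10 for CEACAM1, and down to -0.69 for CEACAM19.

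The replicate numbers are shared between groups but no source says what they stand for, and with 2 pairs they could not be shown to pair the samples (correlation of deviations 0.352 in the EBF2 experiment and -0.0110 in the GSK-LSD1 experiment). With the block, 763 genes were called for GSK-LSD1 against Vehicle, 0 and 1 of the 6 genes were called in the 2 comparisons, and no call of the 6 genes changed. A library left alone in its group is assumed to vary like the other group. At these depths CEACAM5 and CEACAM6, with at most 5 counts in any library, were too low for the main tests, which took CEACAM7 only in the EBF2 experiment. Some alternatives also fitted CEACAM5 and CEACAM6, and CEACAM7 in Vector against Vehicle, and called none of these.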
